A study of Mus musculus with 25 samples.

Results

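The transcription factors of the melanocyte lineage were examined as 10 listed genes: the MiT/TFE genes Mitf, Tfe3, Tfeb and Tfec, the SOX genes Sox10, Sox9 and Sox5, and Pax3, Irf4 and Tfap2a. The symbols were matched to the Ensembl identifiers of the deposited count tables, which hold 55385 genes, and each of the 10 matched a single identifier. Of these, 9 passed the filter on low counts, as did 15247 genes in all, and Tfec did not. RNA-seq had been performed on 5 mouse melanoma cell lines in culture, with 5 libraries per line and 25 in all, to compare lines that differ in how efficiently they colonize the liver of mice.

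WT31 came from Tyr::Nras Q61K/°; INK4a-/- mice, in which the tyrosinase promoter drives the mutant Nras. RET (RET1) came from mice that carry RET under the metallothionein-I promoter, and B16F10 luc2 was a purchased line. D4M came from mice that join Tyr::CreER, an inducible Cre under the tyrosinase promoter, with the allele Braf CA on which it acts. HCmel12 was grown out of a primary melanoma of an HGF-CDK4(R24C) mouse. The study placed WT31, B16F10 luc2 and RET together as high and intermediate metastatic (HIM) and D4M and HCmel12 as low metastatic (LM). All cells were untreated, passaged at most 3 times after thawing and harvested at 50% confluency. D4M grew in Advanced DMEM/F-12 with less serum, HCmel12 in RPMI with further supplements and the other lines in plain RPMI with serum, so line and medium cannot be told apart in comparisons with D4M or HCmel12. Each line is a single line of its genotype. The labels call the 5 libraries of a line biological replicates and do not say whether these were separate cultures, so the p-values measure the spread between these libraries.

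MITF is the basic helix-loop-helix leucine zipper factor that directs melanocyte survival and pigment synthesis, and it can pair with its relatives TFE3, TFEB and TFEC, which bind the same E-box letters and are known for driving lysosome and autophagy genes. In melanocytes, the neural crest factors SOX10 and PAX3 act on the melanocyte start site of Mitf, and MITF and SOX10 then act on Tyr, Dct and other pigment genes. SOX9 and SOX5 are relatives of SOX10, TFAP2A is a neural crest factor that shares pigment gene targets with MITF, and IRF4 is an MITF target that acts with MITF on Tyr and is better known from lymphocytes.

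Total counts ranged from 24199083 to 25843286 per library. On average over the libraries of a line, 3 counts correspond to 0.114 (WT31) to 0.133 CPM (D4M). Levels in CPM are the counts of a gene relative to those of all tested genes in its library after TMM scaling and serve to compare lines. Levels in TPM are also relative to the length of the transcripts and serve to compare genes. Libraries correlated at 0.979 or more within a line and at 0.948 or less between lines. The summed CPM of 9 melanocyte markers (Mitf and Sox10 among them) was 12293 to 31425 in the libraries of 4 lines but 6.59 to 60.6 in D4M (at most 12.2 without replicate 1), where the melanosome gene Gpr143 had 0 counts in every library. In D4M the 7 fibroblast markers instead summed to 707 to 1386 CPM, against at most 102 in any other library. This sum came from collagen and Pdgfr genes, while Dcn had 0.335 ± 0.160 CPM and Lum 0 counts in D4M. The 8 leukocyte markers summed to 2.38 to 16.8 CPM in the 25 libraries. Among them Ptprc, Cd3e and Adgre1 had at most 3 counts in every library, whereas the myeloid genes Lyz2 and Cd68 were detected, Lyz2 with 8.13 ± 3.27 CPM in WT31 and a mean of at most 1.73 in the other lines, and Cd68 with 8.01 ± 5.15 CPM in D4M and 0.601 (WT31) to 3.61 (B16F10 luc2) on average elsewhere. D4M is therefore called by its name and not by a cell type below, and the part of these markers in the results was not tested.

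Individual libraries stood apart in D4M and HCmel12. D4M replicate 1 had 27.0 CPM of Tyrp1, 10.7 of Dct and 8.78 of Pmel, while the other D4M libraries had at most 2.85, 1.19 and 0.724. HCmel12 replicate 4 had 30.1 CPM of Tyr and 5048 of Dct, against at most 9.13 and 2601 in the other HCmel12 libraries. Values that moved by more than 1.5 times without them are given in both ways where they are first described.

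The 3 annotated starts of Mitf lie on chromosome 6 of GRCm38, where the gene spans 97807052 to 98021349 on the plus strand with 8 annotated transcripts. On the same build Sox10 lies on chromosome 15 (79154908 to 79165240, minus strand), Sox9 on chromosome 11 (112782224 to 112787760, plus strand) and Pax3 on chromosome 1 (78101267 to 78197134, minus strand). The sequence around the last of the Mitf starts (250 bases before to 50 after the start, RefSeq on GRCm38.p6) is shown because this is the start from which the short melanocyte transcript is made. Capitals mark the only match to 6 motifs that were searched on both strands. These were the E-boxes CATGTG and, without overlap with it, CACGTG, the SOX letters ACAAAG or the shorter form ACAAT, the AP-2 letters GCCNNNGGC and the CREB letters TGACGTCA, of which the match is the last:
Mitf, chr6:97991533-97991832, plus strand: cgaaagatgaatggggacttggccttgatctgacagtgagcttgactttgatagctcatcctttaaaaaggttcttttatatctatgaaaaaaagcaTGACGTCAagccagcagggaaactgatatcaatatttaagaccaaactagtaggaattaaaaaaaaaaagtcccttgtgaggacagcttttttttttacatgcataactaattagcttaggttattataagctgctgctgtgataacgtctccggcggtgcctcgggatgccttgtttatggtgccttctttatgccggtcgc

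TGACGTCA was found in 1.79% of the 32851 promoters of this length. The other Mitf promoters had no match (chr6:97806808-97807107) or a single GCCNNNGGC (chr6:97929567-97929866). Their base composition differed as well, with 62.7% and 55.7% G and C against 40.0% at the melanocyte start. Of the 10 genes 7 had promoters in the table, 13 in all, and none of these held CATGTG or CACGTG, the E-boxes that MiT/TFE proteins bind (14.2% and 7.15% of all promoters did).

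The same letters were counted in genes that MITF is known to act on. Among 20 listed MITF targets (pigment, cell cycle, survival and metabolism genes), 16 had promoters in the table, and 8 of the 16 held CATGTG, or 50.0%, against 15.9% of 27025 genes. Windows around the matches are shown for Tyr, Tyrp1, Dct and Mc1r, which are among these 8, and those of the others are not shown. Capitals mark CATGTG or its reverse complement CACATG, on the strand of the gene (GRCm38.p6):
Tyr, chr7:87493518-87493543: aaaagttagtCATGTGctttgcagaa
Tyrp1, chr4:80834157-80834182: gggagggagtCATGTGctgcctagta
Dct, chr14:118052381-118052406: cacttagggtCATGTGctaacaaaga
Dct, chr14:118052463-118052488: ttggctgggaCACATGagcccaataa
Mc1r, chr8:123407010-123407035: acatccctggCACATGcccatcatgt
Mc1r, chr8:123407021-123407046: acatgcccatCATGTGgccaccctca

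CACGTG, in turn, was held by 10 of 21 promoters of listed lysosome and autophagy genes, or 47.6%, against 8.09% of all genes, and by 4 of the 16 MITF targets. The AP-2 letters GCCNNNGGC were likewise held by 7 of the 16 MITF targets (43.8%) and by 8 of the 21 lysosome and autophagy genes (38.1%), against 18.6% of all genes, so that a higher share was not particular to the E-boxes. A match describes letters and not a bound site.

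Mitf was high in 4 lines and low in D4M. The 5 D4M libraries had 6.99, 5.91, 6.19, 6.26 and 6.56 CPM, with a mean of 6.38 ± 0.410 (SD, n = 5). HCmel12, the other LM line, had 630, 772, 534, 781 and 512 CPM (646 ± 127). B16F10 luc2 reached 692 ± 81.6, RET 434 ± 57.6 and WT31 416 ± 82.4, so no D4M library overlapped with any other. In limma the log2 fold change of D4M against HCmel12 was -6.64 ± 0.23 (SE, adjusted p = 2.97e-19), and of B16F10 luc2, RET and WT31 against D4M it was 6.75, 6.07 and 5.9998 (adjusted p at most 2.32e-18). In these bulk libraries fewer cells of a type and less RNA per cell cannot be told apart. Among the other 4 lines the order was B16F10 luc2, HCmel12, RET and WT31, and neighbours overlapped except HCmel12 and RET, whose highest library had 482 CPM. B16F10 luc2 and HCmel12 did not differ beyond their spread (adjusted p = 0.435), nor did RET and WT31 (adjusted p = 0.616), while HCmel12 was above RET by 0.56 ± 0.13 (adjusted p = 0.000329).

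**Figure D1:**
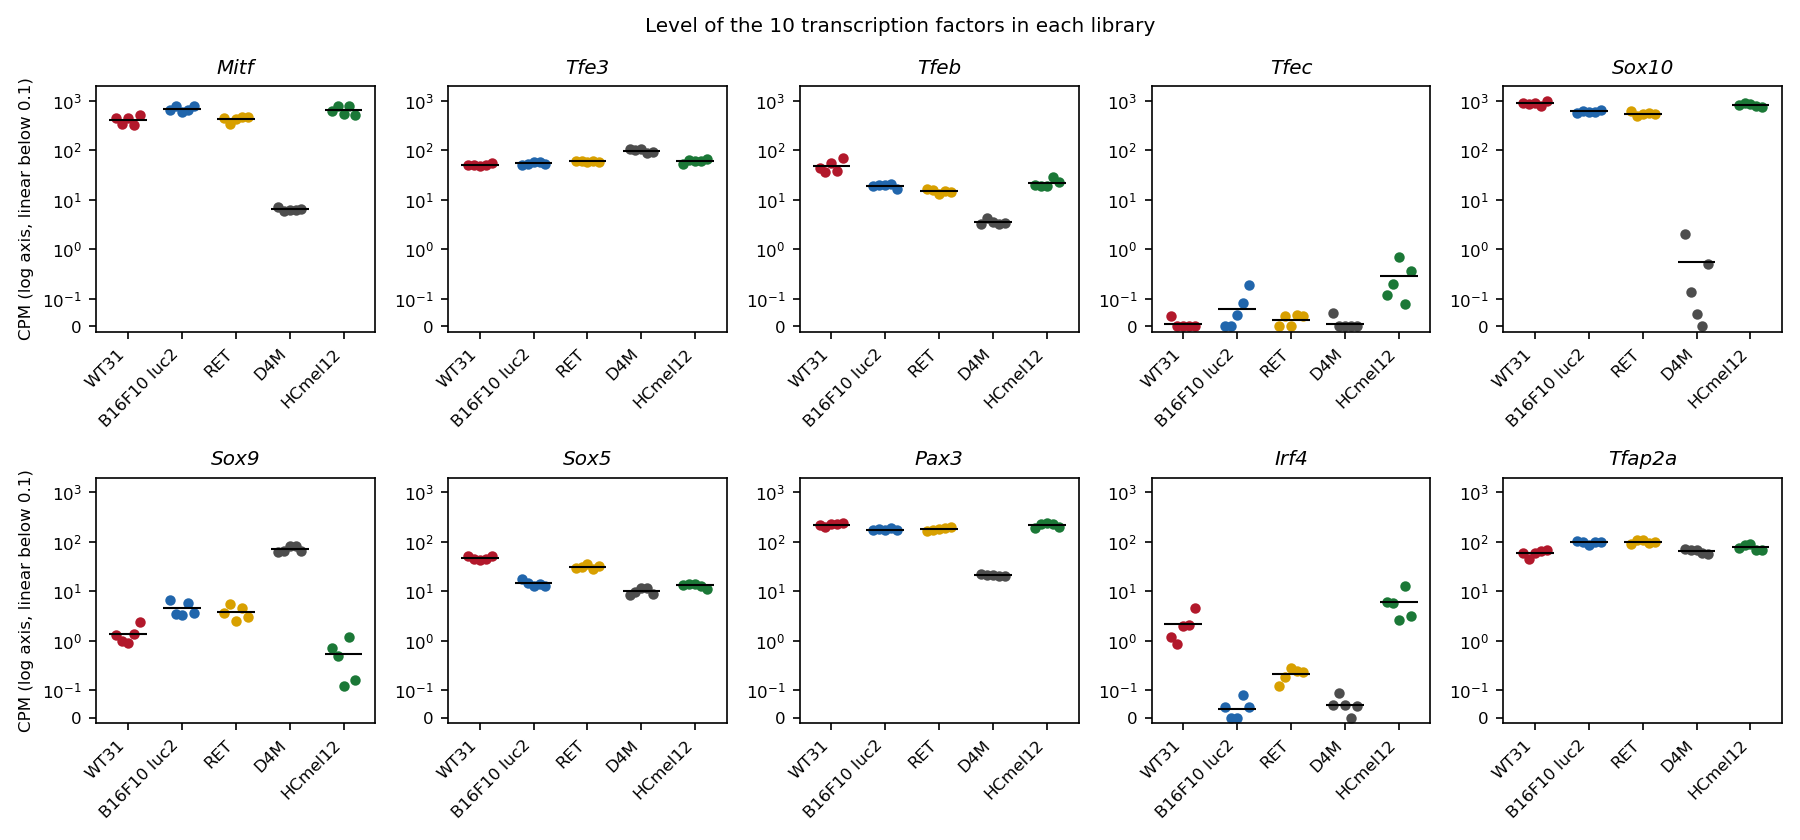
Level of each of the 10 genes in CPM (log axis, linear below 0.1) in the 5 libraries of each line (points, in the order of the replicate numbers) with the mean of the line (bar). Mitf, Sox10 and Pax3 were lower in D4M than in every other library, Sox9 was higher in D4M, and Tfe3 and Tfap2a stayed between 44.1 and 110 CPM in all 25 libraries.

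Tfe3, the broadly expressed MITF relative, went the other way. D4M had 106, 102, 108, 86.6 and 91.4 CPM (98.6 ± 9.19), and the remaining 20 libraries lay between 49.3 and 65.5. The difference was small but larger than the spread, at 0.68 ± 0.06 log2 between D4M and HCmel12 (adjusted p = 1.06e-10) and 0.95 ± 0.06 between D4M and WT31 (adjusted p = 1.71e-13). In the order D4M, HCmel12, RET, B16F10 luc2, WT31, only the first step was larger than the spread (adjusted p of the others 0.789, 0.0865 and 0.107). The step from RET to B16F10 luc2 was called with library size alone (adjusted p = 0.0186) and when only this pair was fitted (adjusted p = 0.0206). On TPM with a pseudocount of 1 the calls of WT31 against RET (adjusted p = 0.176) and of WT31 and B16F10 luc2 against HCmel12 (adjusted p = 0.0515 and 0.215) were lost.

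Tfeb, known as a regulator of lysosome genes, was highest in WT31. WT31 libraries had 44.7, 36.1, 55.0, 38.2 and 69.2 CPM (48.6 ± 13.6), all above the 28.4 CPM of the highest library of any other line, HCmel12 replicate 4. HCmel12 followed with 21.7 ± 3.98 (20.1 ± 1.66 without replicate 4), then B16F10 luc2 with 19.2 ± 1.56 and RET with 14.9 ± 1.36. D4M was lowest, with 3.49 ± 0.402 and no library above 4.18. WT31 exceeded HCmel12 by 1.14 ± 0.14 log2 (adjusted p = 3.67e-08) and D4M by 3.76 ± 0.23 (adjusted p = 8.22e-14), whereas HCmel12 and B16F10 luc2 (adjusted p = 0.341) and B16F10 luc2 and RET (adjusted p = 0.0611) were not separated. The latter difference of 0.37 ± 0.16 was called in 5 other fits (edgeR's quasi-likelihood test, DESeq2's Wald test, this pair alone and TPM at both pseudocounts, adjusted p of 0.00133 to 0.032).

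Tfec, a relative used mainly by macrophages and retinal pigment epithelium, was close to undetected. HCmel12 had 3, 5, 17, 2 and 9 counts. B16F10 luc2 had 8 counts over its 5 libraries, RET 3, and WT31 and D4M 1 each. The ratio of B16F10 luc2 to HCmel12 was 0.223 (exact 95% interval 0.0894 to 0.487), and 5 of the 8 B16F10 luc2 counts came from replicate 5. For RET the ratio to HCmel12 was 0.0804 (0.0158 to 0.255), for D4M 0.0306 (0.000753 to 0.182) and for WT31 0.0262 (0.000646 to 0.156). These intervals cover counting error only. No fold is given where both lines had 3 counts or fewer in every library.

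In sum over the family, D4M had the least message and another leading member. MiT/TFE TPM summed to 51.9 ± 5.51 in D4M (n = 4, since the TPM of replicate 1 were not used here), of which Tfe3 made 91.1%, Tfeb 4.47% and Mitf 4.44%. In the other lines the sum was 243 to 357, and Mitf made 73.7% (WT31) to 87.8% (B16F10 luc2). WT31 differed from the rest in Tfeb, which made 16.01% ± 1.78 there and 3.76% to 4.47% in every other line. Thus Tfeb stood above Tfe3 in WT31 on a per-length scale (45.9 ± 13.3 against 28.6 ± 2.32 TPM), while Tfe3 stood above Tfeb in the other 4 lines.

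**Figure D2:**
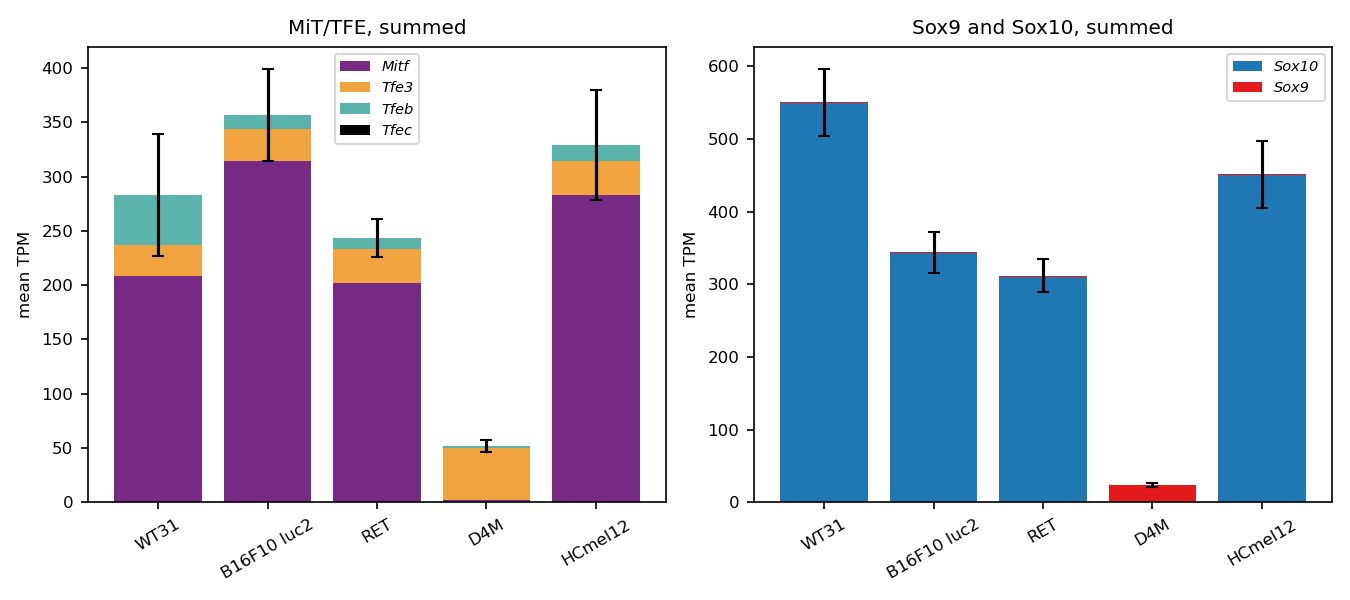
Mean TPM of the MiT/TFE genes (left) and of Sox9 and Sox10 (right), stacked by gene for each line, with the SD of the sum as error bar (n = 5, D4M n = 4). In D4M the sums were 51.9 and 24.1 TPM and consisted mostly of Tfe3 and Sox9, whereas Mitf and Sox10 made up most of the bars of the other lines.

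Sox10, which encodes the neural crest factor needed for the melanocyte fate, was nearly absent from D4M. The D4M libraries had 45, 3, 1, 0 and 12 counts, or 0.552 ± 0.872 CPM, and 0.172 ± 0.233 CPM without replicate 1. WT31 had 897 ± 66.0 CPM, HCmel12 826 ± 58.6, B16F10 luc2 613 ± 31.2 and RET 547 ± 47.4, with a lowest library of 484. On counts pooled over libraries, WT31 was 1658-fold above D4M (95% counting interval 1291 to 2168) and RET 1009-fold (786 to 1320). Of the 61 counts of D4M 45 came from replicate 1, and without it these ratios were 5102 (3141 to 8926) and 3106 (1912 to 5434). The log2 fold change fitted by limma for D4M against HCmel12 was -12.08 ± 0.54 (adjusted p = 9.40e-17), and -12.91 without D4M replicate 1. For WT31 against D4M it was 12.20 and 13.03. The Sox10 counts of D4M moved with the pigment gene counts, since replicate 1 was highest and replicate 5 second in Sox10, Tyrp1, Dct and Pmel. Their part in the Sox10 counts was not tested.

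Among the 4 lines with Sox10 the differences were below 2-fold. WT31 and HCmel12 did not differ beyond their spread (0.12 ± 0.11 log2, adjusted p = 0.347, but 0.29 on TPM with a pseudocount of 1, adjusted p = 0.00264), HCmel12 was above B16F10 luc2 by 0.43 ± 0.11 (adjusted p = 0.00119) and B16F10 luc2 and RET were not separated (adjusted p = 0.219, but 0.0271 when only this pair was fitted). In DESeq2's Wald test the calls of WT31 and of HCmel12 over B16F10 luc2 and RET were all lost (adjusted p of 0.205 to 0.432).

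Sox9, the relative known from cartilage and from hair follicle and glial lineages, ran opposite to Sox10 in D4M. D4M had 62.8, 65.1, 82.7, 83.03 and 65.6 CPM (71.8 ± 10.1). No other library exceeded 6.55 CPM, with means of 4.58 ± 1.49 in B16F10 luc2, 3.85 ± 1.21 in RET, 1.39 ± 0.6004 in WT31 and 0.533 ± 0.434 in HCmel12. D4M exceeded HCmel12 by 7.44 ± 0.43 log2 (adjusted p = 1.85e-14) and B16F10 luc2 by 4.01 ± 0.21 (adjusted p = 2.09e-15). Below D4M only B16F10 luc2 and RET were not separated (adjusted p = 0.503), while RET was above WT31 by 1.49 ± 0.36 (adjusted p = 0.000584) and WT31 above HCmel12 by 1.69 ± 0.51 (adjusted p = 0.00497). Per length, D4M carried 24.02 ± 2.97 TPM of Sox9, so that Sox9 and Sox10 together came to 24.1 TPM, against 312 (RET) to 551 (WT31) in the other lines. Of the sum, Sox9 made 99.6% in D4M and at most 0.477% elsewhere. Of the 31-base words of Sox10 transcripts 0.822% occur in other genes, mainly in Sox9, and of those of Sox9 1.34%, mainly in Sox10. The part of Sox9 reads in the few Sox10 counts of D4M was not tested, and replicates 3 and 4, which had most Sox9, had 1 and 0 Sox10 counts.

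Sox5, a SOX factor without an activation domain of its own, known to modulate SOX10 activity on melanocyte genes, separated WT31 and RET from the rest. WT31 libraries lay between 43.4 and 52.8 CPM (47.2 ± 4.45), RET libraries between 28.3 and 36.1 (31.4 ± 3.13), and the other 15 at or below 17.6. B16F10 luc2 (14.5 ± 1.96) and HCmel12 (13.1 ± 1.21) did not differ beyond their spread (adjusted p = 0.285), and D4M was lowest with 10.0 ± 1.42, below HCmel12 by 0.40 ± 0.12 log2 (adjusted p = 0.00506). WT31 exceeded RET by 0.59 ± 0.08 (adjusted p = 2.74e-07, but by 0.30 on TPM with a pseudocount of 0.1, adjusted p = 0.0586) and RET exceeded B16F10 luc2 by 1.12 ± 0.10 (adjusted p = 3.80e-10). Of the 31-base words of Sox5 transcripts, 9.37% occur in other genes, mainly in Sox5os1, an overlapping antisense gene, and the strand setting of the counting is not stated, so that a part of these counts may belong to it.

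Pax3, the paired-box factor of the neural crest, was lower in D4M than elsewhere but was not lost there. D4M had 22.7, 21.2, 21.02, 19.99 and 20.2 CPM (21.01 ± 1.05), and the 20 other libraries had between 168 and 243. WT31 (221 ± 14.2) and HCmel12 (219 ± 20.2) did not differ beyond their spread (0.01 ± 0.06 log2, adjusted p = 0.840, but 0.16 on TPM with a pseudocount of 1, adjusted p = 0.0277), nor did RET (182 ± 11.97) and B16F10 luc2 (177 ± 6.94, adjusted p = 0.588). Between these pairs, HCmel12 was above RET by 0.27 ± 0.06 (adjusted p = 0.000284). D4M lay 3.38 ± 0.07 below HCmel12 (adjusted p = 5.80e-23). Pax3 thus stood at 21.01 CPM in D4M, where Sox10 had 0.552.

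Irf4 was detected in only 2 lines beyond a few counts. HCmel12 had 6.14, 5.66, 2.63, 12.9 and 3.21 CPM (6.11 ± 4.08, or 4.41 ± 1.75 without replicate 4), and WT31 had 1.21, 0.874, 1.94, 2.08 and 4.69 (2.16 ± 1.501). RET had 3 to 7 counts per library (0.210 ± 0.0605 CPM). B16F10 luc2 and D4M had 0 to 2 counts per library, below the 3 counts taken as the floor. Fitted Irf4 differences with these lines depend on the prior count. They enter the counts of calls and of 2-fold differences below as fitted, and the plot of the comparisons shows them. Their sizes are otherwise not read. From the counts summed over the 5 libraries of a line, the ratio of B16F10 luc2 to HCmel12 was 0.00529 (95% counting interval 0.00144 to 0.0136), that of D4M to HCmel12 0.00726 (0.00235 to 0.01702) and that of B16F10 luc2 to RET 0.154 (0.0391 to 0.441). HCmel12 was above WT31 by 1.499 ± 0.37 log2 (adjusted p = 0.000883), or 1.17 without HCmel12 replicate 4 (adjusted p = 0.00187) and 1.84 without WT31 replicate 5 (adjusted p = 0.000163). HCmel12 replicate 4 was the highest of its line in Irf4, Tyr, Dct and Pmel but not in Sox10, while replicate 3 was the lowest in Irf4 and second in Pmel. The leukocyte markers summed to 2.38 to 4.20 CPM in the HCmel12 libraries and to 4.39 to 12.4 in those of WT31, with Lyz2 at 0.533 and 8.13 CPM on average and Ptprc, Cd79a, Cd3e, Csf1r and Adgre1 at 3 counts or fewer in both lines. The limma call of B16F10 luc2 against RET (adjusted p = 0.0499) was lost in 18 of 25 fits that each left out a library.

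Tfap2a, which encodes AP-2alpha, varied least. RET had 100.5 ± 9.20 CPM, B16F10 luc2 97.7 ± 5.84, HCmel12 77.7 ± 9.67, D4M 64.2 ± 6.15 and WT31 59.3 ± 9.32, and libraries of neighbouring lines overlapped. RET and B16F10 luc2 did not differ beyond their spread (adjusted p = 0.780), nor did D4M and WT31 (adjusted p = 0.266), and B16F10 luc2 was above HCmel12 by 0.34 ± 0.10 log2 (adjusted p = 0.00306). Of its 31-base words 12.7% occur in other genes, mainly in the predicted gene Gm26688, and a part of its counts could have been assigned there. Its relative Tfap2b behaved otherwise, with 265 ± 22.3 CPM in D4M and 130 ± 29.2 in HCmel12 but at most 0.218 in any library of WT31, B16F10 luc2 or RET.

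On the scale per length, Sox10 led among the 10 genes in all 4 lines that expressed it, with 310 ± 22.95 (RET) to 550 ± 46.0 TPM (WT31), followed by Mitf and Pax3. In D4M, Tfe3 led with 47.3 ± 5.01 TPM, followed by Tfap2a with 35.7 ± 3.04, Sox9 with 24.02 ± 2.97 and Pax3 with 7.96 ± 0.264. The line means of the 9 tested genes spanned from 0.77 log2 units (Tfap2a) and 0.95 (Tfe3) to 12.19 (Sox10), where the median gene spanned 1.41. The span of Sox10 was larger than that of 99.3% of tested genes, of Sox9 91.5% and of Mitf 89.2%.

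The 10 comparisons between lines were then counted, with an adjusted p under 0.05 in limma as the call. Most genes differ between these lines, so that each count is read against the share of all tested genes. Between WT31 and D4M 8 of the 9 tested members were called, beside 76.1% of all genes, and 7 were called with at least a 2-fold difference, beside 36.7%. Of these 7, 6 were higher in WT31 (18.6% of all genes were) and Sox9 was lower (18.1%). For B16F10 luc2 against D4M the counts were 8 (77.7% of genes) and, at 2-fold or more, 5 (39.8%). For RET against D4M they were 8 (77.1%) and 6 (39.2%). These 3 comparisons share the D4M libraries.

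The comparisons with HCmel12 were counted in the same way. WT31 gave 7 calls (70.4% of all genes) and 4 at 2-fold or more (30%), B16F10 luc2 6 (69.1%) and 2 (28.1%), and RET 8 (67.2%) and 3 (26.6%). These 3 also share their reference libraries. In each of them Sox9 was among the members past 2-fold and higher in the HIM line, and Irf4 was lower (for B16F10 luc2 as fitted).

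Within the HIM lines, WT31 against B16F10 luc2 gave 8 calls (72.8%) and 4 at 2-fold or more (31.4%), and WT31 against RET 8 (73.2%) and 3 (31.2%). Past 2-fold, WT31 was above RET in Tfeb and Irf4 (16.6% of genes were higher in this sense) and below in Sox9 (14.5%). B16F10 luc2 against RET gave 3 calls (51.5%), namely Mitf, Sox5 and Irf4, of which 2 passed 2-fold as fitted (14.3%). Within LM, D4M against HCmel12 gave 9 calls of 9 (72.5%), with 6 at 2-fold or more (35.4%): Sox9 was higher in D4M (17.9% of genes) and Mitf, Tfeb, Sox10, Pax3 and Irf4 were lower (17.5%). With 9 members, the called shares are near the background in most pairs and are not a result about the members.

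**Figure D3:**
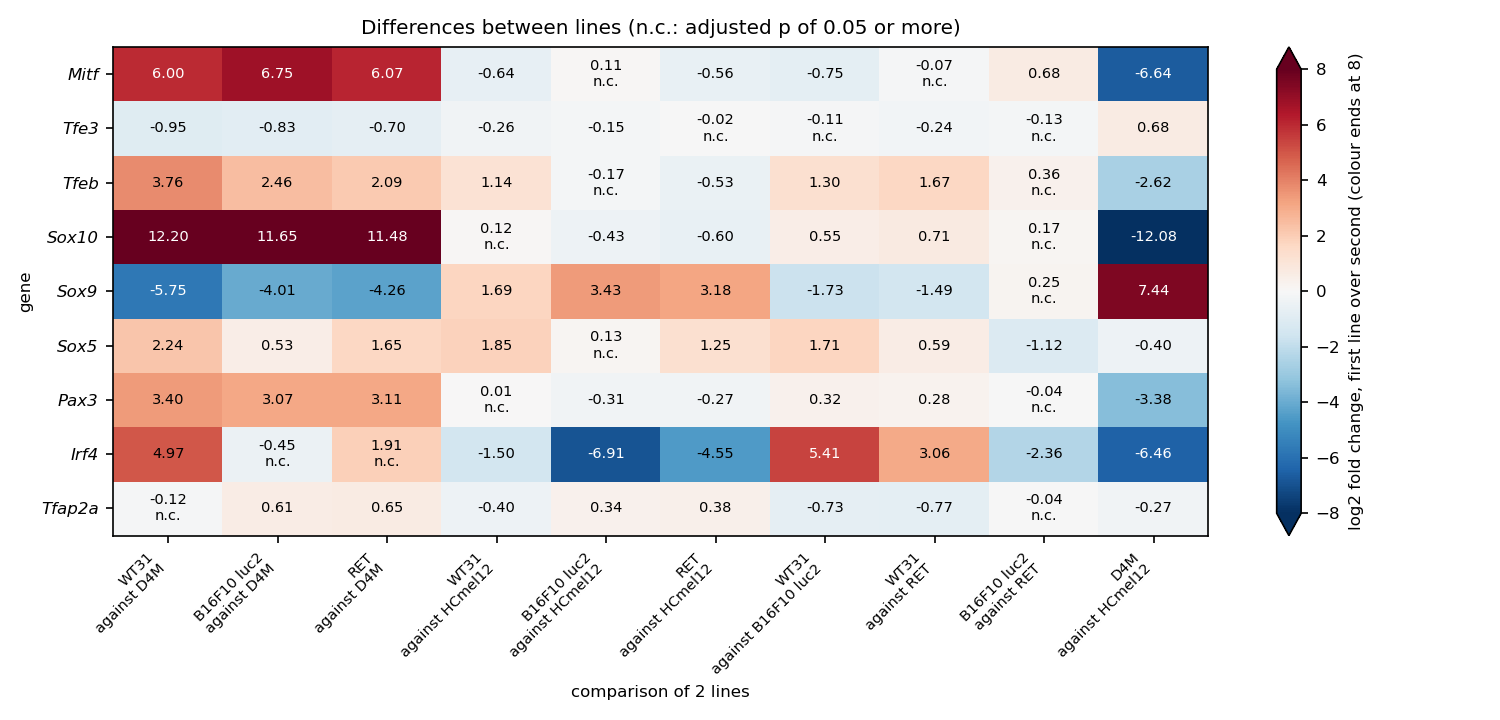
Log2 fold change (first line over second) of the 9 tested genes in the 10 comparisons, with n.c. for values that were not called (adjusted p of 0.05 or more). The D4M comparisons hold the values of -12.08 to 12.20 of Sox10 (-12.91 to 13.03 without D4M replicate 1), while B16F10 luc2 against RET has 6 of 9 values not called. Values of Irf4 with B16F10 luc2 or D4M are shown as fitted and depend on the prior count.

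For 0 of the 9 members did all 15 HIM libraries lie on one side of all 10 LM libraries, beside 8.02% of all tested genes. A count of 0 among 9 is near that share and is not a result about the members. With 3 lines against 2 the smallest exact p would be 0.1, so no test of lines was made. In Mitf, Sox10 and Pax3, HCmel12 was second of the 5 lines and D4M last: HCmel12 had 646, 826 and 219 CPM and D4M 6.38, 0.552 and 21.01.

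To place the members among other genes, the 3 genes most like each in log2 CPM over the 25 libraries were taken from 9594 tested genes whose line means span at least 1. The libraries fall into 5 lines, so these correlations are a description. Mitf was most like Gm17028 (r = 0.993), Gnao1 (0.989) and Sox6 (0.988). Pax3 was most like Syt4 (0.997), Gm17028 (0.993) and Sgk3 (0.992). Sox10 had Alx1 (0.994), Dct (0.992) and Cntfr (0.988), of which Dct encodes a melanin synthesis enzyme. Tfeb had Oca2 (0.984), the melanosome ion transport gene, Tacc1 (0.981) and Rnf130 (0.980). For Sox9 the values were lower, with Chic1 (0.965), Tor3a (0.962) and the collagen gene Col1a2 (0.956). Sox5 (Crot, 0.959, Msrb2, 0.954, and Olfml1, 0.951) and Irf4 (Lrch1, 0.950, Cyp4b1, 0.947, and Stau2, 0.946) had still less similar partners.

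Genes that MITF acts on were lower in D4M together with Mitf. All 20 listed MITF targets passed the filter, and 20 of 20 were at least 2-fold lower in D4M than in HCmel12 (17.5% of all genes were), with a median log2 fold change of -8.29 as fitted, where the median of all genes was 0.00. With the 4 targets that had at most 3 counts in every D4M library set to the floor of 3 counts the median was -6.89. Against WT31 likewise 20 of 20 were at least 2-fold lower in D4M (18.6% of all genes), and WT31 was above D4M by a median of 11.62 as fitted (all genes -0.01), of 10.501 with the same 4 targets at the floor and of 12.21 as fitted without D4M replicate 1 and HCmel12 replicate 4. Against B16F10 luc2 19 of 20 were at least 2-fold lower in D4M (18.1% of all genes), and against RET 17 of 20 (18.4%). The medians of these lines over D4M were 9.42 and 8.69 as fitted. Of the 20, Ednrb had 0 counts in D4M and at most 0.408 CPM in HCmel12, which bounds its difference at only 1.40-fold. Tyrp1, which encodes a melanosomal enzyme, had 8344 ± 898 CPM in HCmel12 and 5.99 ± 11.8 in D4M, or 0.725 ± 1.42 without D4M replicate 1. Trpm1, a channel gene of melanocytes, had 107 ± 58.1 and 0.111 ± 0.111 CPM in these lines. Among the smaller differences, Cdk2, the cell cycle kinase, had 48.9 ± 2.87 CPM in D4M and 236 ± 32.8 in HCmel12, and Bcl2, the survival factor, had 22.4 ± 3.32 and 45.7 ± 5.36.

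Lines with similar Mitf differed in its targets. WT31 and RET, whose Mitf was not separated, differed in 19 of 20 targets (73.2% of all genes differed), 9 of them at least 2-fold higher in WT31 (16.6% of all genes) and 2 lower (14.5%), with a median of 0.93 (all genes 0.00). Tyr, which encodes tyrosinase, had 3982 ± 403 CPM in WT31 and 219 ± 27.3 in RET, a difference of 4.19 ± 0.16 log2 (adjusted p = 4.68e-18). Mc1r, the melanocortin receptor, was higher in WT31 by 1.14 ± 0.15 (adjusted p = 2.86e-07). Tyrp1 went the other way, being lower in WT31 by 1.20 ± 0.22 (adjusted p = 2.76e-05), and Mlph, a melanosome transport gene, was lower by 1.19 ± 0.16 (adjusted p = 1.56e-07). Likewise the Mitf levels of HCmel12 and B16F10 luc2 did not differ beyond their spread, while in B16F10 luc2 17 targets were higher and 1 lower (69.1% of all genes called), 11 and 1 of them at least 2-fold (12.2% and 16%), with a median of 1.46 (all genes 0.00). The widest of these differences was that of Tyr, of which HCmel12 had 12.5 ± 9.88 CPM (8.09 ± 1.23 without replicate 4) and B16F10 luc2 1134 ± 90.5.

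Of 10 listed SOX10 targets 9 passed the filter, the exception being Mia. In D4M against HCmel12 7 were at least 2-fold lower (17.5% of all genes) and 1 was higher, with a median of -4.66 (all genes 0.00). One of the 7 is Ednrb, whose bound of 1.40-fold was given above. Erbb3, a neuregulin receptor of Schwann cells and melanocytes, had 0.487 ± 0.113 CPM in D4M and 154 ± 20.1 in HCmel12. S100b, a calcium-binding protein of glia and melanocytes, was the one that was higher in D4M, with 9.89 ± 2.25 against 0.703 ± 0.562 CPM (4.07 ± 0.38 log2, adjusted p = 2.99e-10), although HCmel12 has Sox10 and D4M nearly none. Mef2c, known from muscle and neural crest, was lower in WT31 than in D4M (27.0 ± 5.76 and 82.8 ± 19.98 CPM). In this comparison the other 8 tested targets were at least 2-fold higher in WT31 (18.6% of all genes) and Mef2c at least 2-fold lower (18.1%). Tyr, Dct and Ednrb stand in both target lists.

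**Figure D4:**
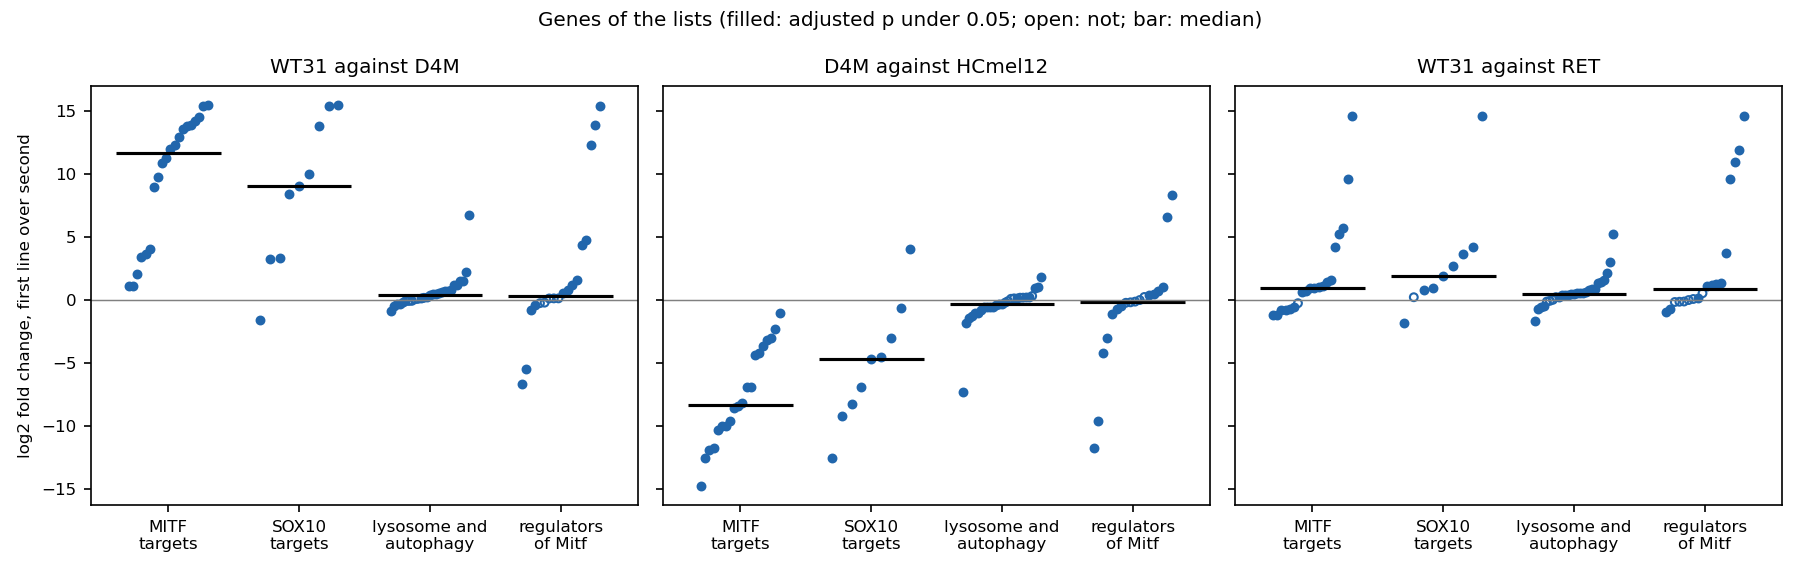
Log2 fold changes of the tested genes of 4 lists in 3 comparisons (filled points: adjusted p under 0.05, open points: not, bar: median of the list). All 20 MITF targets lie above 0 in WT31 against D4M and below 0 in D4M against HCmel12, while the medians of lysosome and autophagy genes are 0.38, -0.29 and 0.48.

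The lysosome and autophagy genes that TFEB and TFE3 act on had smaller median differences than Tfeb. Of 27 listed genes, all tested, 6 were at least 2-fold higher in WT31 than in D4M (18.6% of all genes) and 0 lower (18.1%), with a median of 0.38. With the adjusted p alone, 16 were higher and 5 lower (76.1% of all genes were called). Against RET, WT31 had 19 higher and 4 lower (73.2% called), 6 and 1 of them at least 2-fold (16.6% and 14.5%), with a median of 0.48. D4M against HCmel12 gave 6 higher and 15 lower (72.5% called), 2 and 6 at least 2-fold (17.9% and 17.5%), with a median of -0.29. The list did not follow Tfeb in every pair. RET exceeded D4M in Tfeb by 2.09 log2, but 9 listed genes were higher and 12 lower (77.1% called). Of these 3 and 5 were at least 2-fold (18.4% and 20.8%), with a median of -0.03. B16F10 luc2 exceeded D4M in Tfeb by 2.46 log2, with 12 listed genes higher and 10 lower (77.7% called). There 7 and 2 were at least 2-fold (18.1% and 21.7%), with a median of 0.14. The line means of Rragd (7.26) and Ctsf (4.62) spanned more than the 3.76 log2 units of Tfeb. Rragd, a Rag GTPase of the nutrient-sensing pathway, had 0.709 ± 0.435 CPM in D4M and 44.7 to 95.7 on average in the other lines. Atp6v0d2, a proton pump subunit gene, was low throughout, with 1.07 ± 1.15 CPM in WT31, 0.805 ± 0.365 in D4M and 0 counts in RET. Mcoln1, the lysosomal calcium channel gene, was highest in WT31 (56.3 ± 6.42 CPM) and lowest in RET (12.8 ± 1.01), a difference of 2.14 ± 0.11 log2 (adjusted p = 1.69e-15). Ctsf, a cathepsin gene, had 11.99 ± 2.09 CPM in WT31, 2.65 ± 0.681 in D4M and 0.467 ± 0.0671 in B16F10 luc2. Flcn, which encodes folliculin of the Rag GTPase pathway, had 18.01 ± 1.39 CPM in D4M and 49.8 ± 4.09 in HCmel12, whereas the cathepsin gene Ctsb was higher in D4M than in HCmel12 by 0.99 ± 0.06 log2 (adjusted p = 3.23e-14).

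Among 18 listed regulators of Mitf, D4M against HCmel12 gave 6 higher and 7 lower (72.5% of all genes called), 3 and 5 of them at least 2-fold (17.9% and 17.5%), with a median of -0.16. Zeb1, a zinc finger repressor known for opposing Mitf and its partner Zeb2, had 107 ± 7.58 CPM in D4M and at most 1.61 in any other library. Gli2, a Hedgehog factor known to repress Mitf, had 2.03 ± 0.664 CPM in D4M and at most 3 counts in every other library. Zeb2 was lower in D4M than in HCmel12 (99.8 ± 9.99 and 168 ± 15.01 CPM), and Bhlhe41, both a target and a repressor partner of MITF, had 7.29 ± 1.56 CPM in D4M and 137 ± 41.7 in HCmel12. Within the HIM lines, 9 of 18 were at least 2-fold higher in WT31 than in RET (16.6% of all genes) and 0 lower (14.5%). Against B16F10 luc2, 8 were at least 2-fold higher in WT31 (17.7%) and 1 lower (13.7%). Foxd3, a neural crest factor, had 38.8 ± 5.51 CPM in WT31, 22.1 ± 2.54 in D4M, 13.6 on average in HCmel12 and 0 counts in every library of B16F10 luc2 and RET. Lef1, the Wnt pathway factor, had 94.4 ± 10.3 CPM in WT31 and at most 5.62 in any other library. The receptor genes Kit (531 ± 104 CPM in WT31, 0.739 ± 0.396 in RET) and Ednrb (975 ± 159 CPM in WT31, at most 0.408 in any other library) were high in WT31 as well, with Kit also at 120 ± 18.7 CPM in HCmel12, and both are also listed as MITF targets.

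Relatives of the members were read from 9 listed genes, of which Sox6, Sox13, Tfap2b and Irf8 passed the filter. In D4M against HCmel12 3 of the 4 were higher and Sox6 was lower, all at least 2-fold (17.9% and 17.5% of all genes). Sox6, which works with Sox5, followed Mitf (4.87 ± 0.993 CPM in D4M and 66.9 to 89.4 on average elsewhere) and not Sox5. Sox13 had 51.4 ± 11.6 CPM in D4M and 5.84 ± 0.941 in WT31. Irf8, the relative of Irf4 known from myeloid cells, had 8.43 ± 2.64 CPM in WT31 and 1.78 ± 0.838 in D4M but 0.0727 ± 0.0528 in HCmel12, the line with most Irf4. Sox8, the closest relative of Sox9 and Sox10, had at most 9 counts in any library.

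Since the deposited counts and TPM of a gene differ by its mean effective length, this length was recovered per library, as a readout of which transcripts the counts came from. The scale came from a straight line fitted in each library to genes with 1 annotated transcript, over 200 counts and over 500 bases. These same genes deviated from it by at most 0.361% in all 24 libraries. This is no check of genes with several transcripts or few counts. For Tfeb, with 15 annotated transcripts of 287 to 2342 bases, the WT31 libraries gave 1613, 1729, 1609, 1562 and 1636 bases (1630 ± 61.6). The means of B16F10 luc2, RET and HCmel12 were 2012, 2073 and 2089 bases and that of D4M was 1961 (n = 4), with a lowest library of 1810, so that WT31 did not overlap with any other line. WT31 minus HCmel12 was -459.6 bases. The exact permutation p of WT31 against B16F10 luc2, RET and HCmel12 was 0.0079, and against D4M 0.0159, which are the smallest these numbers of libraries can give. Adjusted over the 67 pairs tested the values were 0.0529 and 0.0533 and missed 0.05, as did all 67. Tfeb was not alone in this, since Pax3 in WT31 lay above B16F10 luc2, RET and D4M without overlap (by 94.3, 71.5 and 88.2 bases) at the same p-values, and Sox5 in D4M lay above RET (RET minus D4M -1462.9 bases) and HCmel12 (by 1161.7 bases, each exact permutation p = 0.0159, adjusted p = 0.0533).

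For Mitf the mean effective length was 2972 (RET) to 3113 bases (HCmel12) in the 4 lines with high levels, whose libraries overlapped, and it was scattered in D4M, where the 4 libraries gave 3330, 3612, 4204 and 2970 bases. D4M overlapped with the other lines (exact permutation p against HCmel12 0.0952, adjusted 0.160), and its low counts limit the precision. For Sox10, RET lay below the other lines without overlap, though only by 48.1 bases against WT31 (2452 ± 6.10 and 2500 ± 3.30 bases, exact permutation p = 0.0079, adjusted p = 0.0529).

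**Figure D5:**
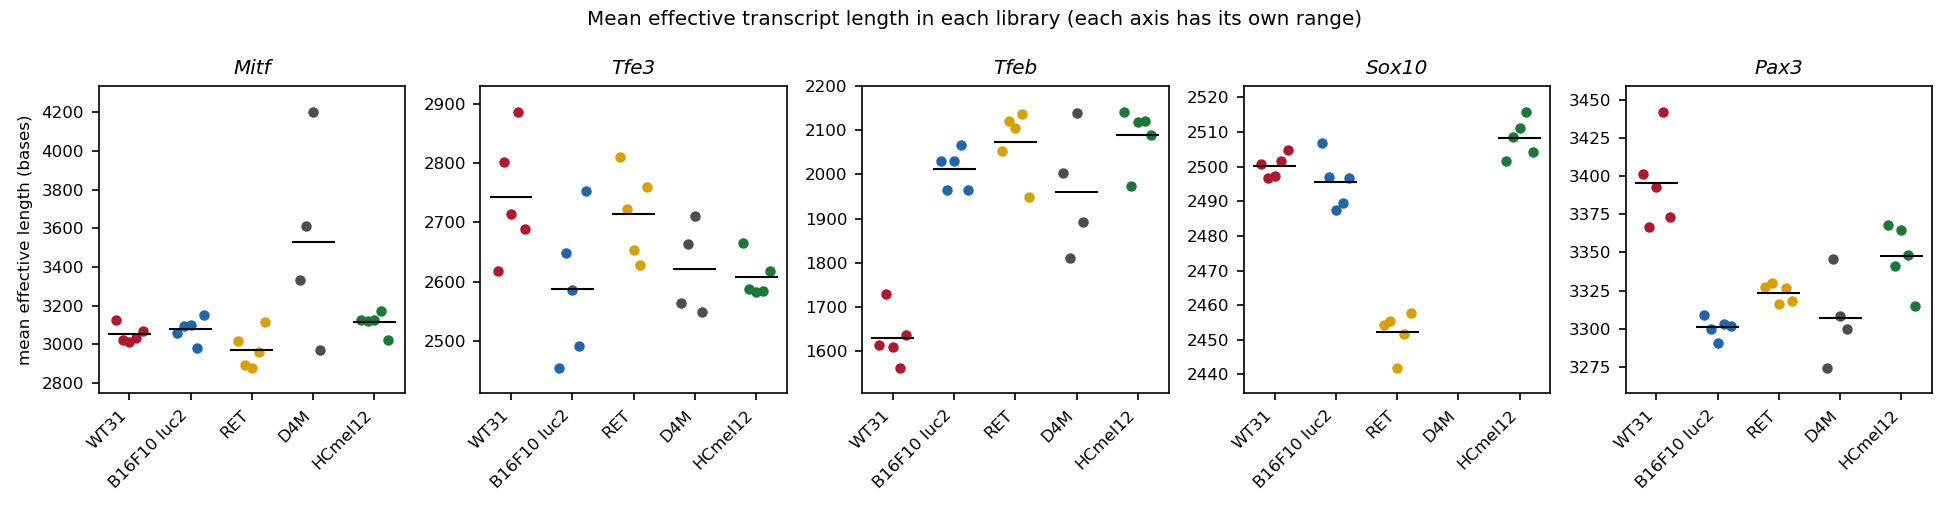
Mean effective transcript length in bases of 5 of the genes in each library (points, D4M without replicate 1, Sox10 not shown for D4M because of its low counts) with the mean of the line (bar), each axis with its own range. Tfeb in WT31 lies at 1562 to 1729 bases, below all other libraries, which start at 1810.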

How the data were processed

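Per the labels and the study's methods, total RNA was sequenced, reads were trimmed with Trim Galore 0.6.4 and quantified with kallisto on GRCm38.p6. The authors deposited estimated counts per gene, which need not be whole, and TPM values, that is, counts per length with the same sum in each library. For D4M replicate 1 only counts entered the analysis. The annotation release, strand setting and step from transcripts to genes are not given in the sources used here, and the sources differ on the sequencer and the kallisto version. Counts were filtered by filterByExpr, scaled by TMM (edgeR 4.0.16) and tested by voom and limma 3.58.1 in R 4.3.3, with 1 mean per line over all 25 libraries, 2-sided, and Benjamini-Hochberg adjustment over 15247 genes. Adjusted p-values in the text come from this fit unless another test is named. DESeq2 1.42.0, edgeR's quasi-likelihood test, other scalings, filters, TPM with a pseudocount of 1 or 0.1, and leaving out libraries were alternatives. On counts simulated for D4M against HCmel12 (15247 genes, 200 of them changed), the fit called 87% of 2-fold and 100% of 4-fold changes, with 14 false calls. The changed genes were drawn from genes without low mean counts, all genes had 1 dispersion, and the lines were otherwise alike. These rates therefore do not cover members with few counts or lines that differ in most genes. Lengths were compared by exact permutation tests (scipy 1.17.1), added after the data were seen. GENCODE vM21 gave coordinates, with 54487 of 55385 versioned identifiers matched. The members and lists were chosen with earlier results of these data known. All 10 members were named, together with the 3 genes most like each tested member whose line means span at least 1, and from each list up to 4 with the widest span of line means. Cdk2, Bcl2, Mlph, Erbb3, S100b, Mef2c, Flcn, Ctsb, Zeb1, Zeb2, Gli2, Foxd3 and Bhlhe41 fall outside this rule, and Mc1r and Kit do as MITF targets. They were chosen after their values were seen. Some items of the labels and lists are not reported here.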

Additional observations from a re-analysis of the deposited data

Results flagged for a closer look

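Of 45 groups of 5 libraries (a gene in a line, with more than 3 counts in some library), 2 held a library whose gap to the next, divided by the range, exceeded 0.71, and chance flags about 1 in 20 groups. Sox10 in D4M replicate 1 was 2.07 CPM, while the other D4M libraries had 0 to 0.511 (ratio 0.753). The same library was highest of D4M in Tyr, Tyrp1, Dct, Pmel, Mlana and Mitf, and the part of this in Sox10 was not tested. Tfeb in D4M replicate 2 was 4.18 CPM, against 3.20 to 3.47 in the others (ratio 0.719).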

How the results depend on the processing

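Of the 90 gene differences between lines, those that changed sign under an alternative had not been called. Tfap2a in WT31 against D4M (-0.12) became 0.10 with library size alone and 0.06 with TPM at either pseudocount (0.0565 and 0.0577). Mitf in WT31 against RET (-0.07) became 0.0278 with TPM at both, Tfe3 in RET against HCmel12 (-0.02) became 0.0054 with library size alone, and Pax3 in WT31 against HCmel12 (0.01) became -0.0089 with DESeq2 size factors, -0.0113 in DESeq2's Wald test and -0.0036 with only the pair of lines. Leaving out 1 library at a time gave -0.0293 to 0.0515 for this Pax3 difference, -0.0655 to 0.0038 for that of Tfe3 and -0.1643 to 0.0101 for that of Mitf, where WT31 replicate 4 turned the sign. In these 25 fits 2214 of 2250 values kept direction and call. The exceptions beyond those named were Irf4 in B16F10 luc2 against RET (adjusted p of 0.0161 to 0.108) and in RET against D4M (adjusted p of 0.0304 to 0.171), Tfeb in B16F10 luc2 against RET (0.32 to 0.41), Tfe3 in B16F10 luc2 against HCmel12 (-0.19 to -0.13) and Tfap2a in D4M against HCmel12 (-0.32 to -0.22).

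With at least 10 counts in every library fewer members were tested, with 60 gene differences over the 10 comparisons in place of 90. The calls were 5 for WT31 against D4M, 3 for B16F10 luc2 against HCmel12, and 5 each for RET against HCmel12, WT31 against B16F10 luc2 and WT31 against RET. The share of all genes called with this filter is not given here, so the lower counts are not read as fewer differences. Requiring 2-fold left 5 for B16F10 luc2 against D4M, 4 for WT31 against HCmel12, 2 for B16F10 luc2 against HCmel12, 3 for RET against HCmel12, 4 for WT31 against B16F10 luc2 and 3 for WT31 against RET. Fitting only the pair of lines gave 5 calls for B16F10 luc2 against RET in place of 3, and the cause was not tested. For this fit the share of all genes is not given either, so the higher count is not a result about the members. Without D4M replicate 1 and HCmel12 replicate 4, an alternative chosen after seeing the data, the counts were as before but for RET against D4M, with 9 in place of 8. Libraries with the same replicate number did not deviate together (50 pairs, r from -0.091 to 0.104), and a replicate block changed 1 of 90 calls, Irf4 in RET against D4M (adjusted p = 0.0221). This Irf4 difference was also called with library size alone (adjusted p = 0.0487), in edgeR's quasi-likelihood test (0.0444) and in DESeq2's Wald test (0.0102).

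Counts of Tfec, of Irf4 in 3 lines and of Sox10 in D4M are too low for a fold to be precise, and intervals cover counting error only.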
